A study of Homo sapiens with 8 samples.

Results

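The counts described here are those of 5 rows of a count table, the rows that lie at the loci of ILF2, EIF3I, SERBP1 and YBX1 on chromosome 1. A row was a member when at least 1 of its exon intervals fell in the GRCh38 span of one of these genes, which selected 5 of 63568 rows in the table and 5 of 5363 on chromosome 1. The rule itself reads positions and no counts, but the members were chosen with earlier results of these data known. Their medians and calls beside those of all rows are therefore descriptions only. The rows carry the names that these positions have in hg19: NPR1 at ILF2, ADGRB2 and MIR4254 at EIF3I, MIER1 at SERBP1, and FOXJ3 at YBX1. Because the names and the loci differ, each result below is given as that of a row.

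The libraries came from HEK 293T, a line of transformed human embryonic kidney cells, grown in medium with exosome-depleted serum and RNase A and transfected by lipofection. Construct cultures received GFP joined to YTHDF1 together with CD9 joined to a GFP-binding protein, and control cultures received the same CD9 fusion with GFP alone, so every group carried the CD9 fusion and GFP. Cell lysates and the microvesicles shed into the medium were sequenced from both, giving 4 groups of 2 libraries: construct cells and construct microvesicles (replicates II and III), and control cells and control microvesicles (replicates I and II). Expression was transient in a single line, and the labels do not say whether the replicates were separate cultures, so p-values reflect only how far these libraries differ from each other, and that spread may be technical. YTHDF1 and CD9 lie on other chromosomes, where the table holds a count of 0, so the transfected genes could not be checked.

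The 4 genes act on messenger RNA after it is made. ILF2 (NF45) is part of complexes that bind double-stranded RNA, EIF3I is a subunit of the initiation factor that brings the small ribosomal subunit to mRNA, SERBP1 binds mRNA and idle ribosomes, and YBX1 is a cold-shock domain protein that coats mRNA and is known for its part in loading small RNAs into extracellular vesicles. YTHDF1, the protein fused to GFP in the construct, reads methylated adenosines in mRNA and associates with translating mRNA, and CD9 belongs to the tetraspanins that sit in vesicle membranes. The GFP-binding protein on CD9 ties the GFP fusion to the membrane from which vesicles form.

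Which parts of the 4 genes the rows hold decides what their counts can describe. Coding stretches of ILF2 and EIF3I exons that fall in a row are shown here 5′ to 3′ on the gene's strand, from the GENCODE transcripts of the MANE Select models, with capitals for bases inside a row's intervals and lower case for bases outside them. ILF2 exon 7 (chr1:153665663-153665728, minus strand) lay whole in the NPR1 row and exon 13 (chr1:153662705-153662795) in part. EIF3I exon 5 (chr1:32226171-32226320, plus strand) lay in part in the ADGRB2 row and exon 6 (chr1:32226403-32226530) whole.
ILF2 exon 7: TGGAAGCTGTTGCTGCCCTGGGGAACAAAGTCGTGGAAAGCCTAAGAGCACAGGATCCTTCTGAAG
ILF2 exon 13: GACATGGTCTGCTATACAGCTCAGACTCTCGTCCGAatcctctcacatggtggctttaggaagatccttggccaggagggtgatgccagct
EIF3I exon 5: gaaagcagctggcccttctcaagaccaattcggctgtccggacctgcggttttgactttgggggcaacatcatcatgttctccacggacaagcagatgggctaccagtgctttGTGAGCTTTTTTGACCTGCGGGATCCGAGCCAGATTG
EIF3I exon 6: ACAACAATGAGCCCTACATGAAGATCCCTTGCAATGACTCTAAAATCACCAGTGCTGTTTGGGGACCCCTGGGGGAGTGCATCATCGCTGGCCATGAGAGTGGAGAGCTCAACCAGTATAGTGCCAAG

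The MIER1 row (ENSG00000198160.10, hg19 chr1:67390578-67454302, plus strand, 8273 exonic bases) held 1431 of the 6681 bases of the SERBP1 mRNA, all in exon 8. Its other overlap with a MANE Select exon was 328 bases of IL12RB2, a cytokine receptor subunit. The NPR1 row (ENSG00000169418.9, chr1:153651113-153666468, plus strand, 5003 bases) held 346 of 1852 bases of ILF2, in exons 7, 13 and 14, but also 619 of 1003 bases of SNAPIN, a SNARE-associated protein whose gene lies beside ILF2. The ADGRB2 row (ENSG00000121753.8, chr1:32192718-32230494, minus strand, 7761 bases) held 175 of 1421 bases of EIF3I, in exons 1, 5 and 6, beside 863 bases of TXLNA, 677 of IQCC, 337 of CCDC28B, 199 of TMEM234 and 186 of DCDC2B.

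The FOXJ3 row (ENSG00000198815.4, chr1:42642210-42801548, minus strand, 6893 bases) held 0 of the 2979 bases of the YBX1 mRNA. Its 1 interval in the YBX1 span, of 84 bases, lay outside the exons of the MANE Select model, while 1542 bases of the row lay in exons of CCDC30, 139 in TMEM269, 61 in C1orf50 and 39 in PPIH. The label YBX1 is therefore not borne out for this row, which is called FOXJ3 throughout. MIR4254 (ENSG00000266580.1, chr1:32224261-32224336, 76 bases) held 0 exon bases of EIF3I. Reads of neighbouring or opposite genes inside one row cannot be told apart, since the library kit does not mark strand; of the members, the MIER1 row had the largest share of its bases in the exons of its own locus (17.3%, against 6.92% in the NPR1 row and 2.25% in the ADGRB2 row).

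Counts were set beside GRCh38 position across chromosome 1. Of 947 rows with 100 or more bases in GRCh38 MANE Select exons, 31.4% had at least 100 counts summed over the 4 cell libraries, compared with 1.6% of 4119 rows with 0 such bases. Rows were not matched for length or number of intervals, and hg19 exons were not compared. This gap alone therefore does not show which assembly the counts follow. Rows with 100 or more such bases held 72.2% of all counts in cells but 22% in microvesicles, and rows with 0 such bases held 22.4% in cells and 74.9% in microvesicles, so the reading of rows by GRCh38 exons covers a smaller part of the microvesicle counts. The rows that bear the members' own symbols had few counts: 78 over all 8 libraries for EIF3I, 42 for SERBP1 and 43 for YBX1, none of which meets a GRCh38 MANE Select exon. The row labelled ILF2 had 1484 counts and covers exons of CHTOP, a chromatin and RNA-export protein. Total counts were 42950 and 58664 in construct cells and 109099 and 163157 in control cells. They were 34602 and 64025 in construct microvesicles and 238416 and 479140 in control microvesicles, and all counts lay on chromosome 1. Depth was thus higher in the control group of each compartment, and its part in the results was not tested. In the 2 construct microvesicle libraries 11.7% and 28.2% of counts fell in the rows LINC01128 and TP53BP2, in control microvesicles 41.8% and 68.5%, and in each cell library under 0.1%; control microvesicles II stood apart by this measure. Control microvesicles II also had the lowest level (CPM, the row's share of the library's total count scaled to 1e6) of NPR1, ADGRB2, MIER1 and FOXJ3. Values with LINC01128 and TP53BP2 left out are given below. Whether their share caused the results was not tested.

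SERBP1 is described first, since its row held the most of its own gene. The MIER1 row had 795 and 1033 counts in construct cells, 1490 and 1702 in control cells, 154 and 336 in construct microvesicles and 234 and 118 in control microvesicles, in the order of the replicates. As a level, this was 18059 ± 637 CPM in construct cells, 12044 ± 2281 in control cells, 4849 ± 564 in construct microvesicles and 614 ± 520 in control microvesicles (SD, n = 2 each). No 2 groups overlapped on this scale, and both construct microvesicle libraries (4451 and 5248 CPM) were above both control microvesicle libraries (981 and 246). How common such gaps were among all rows was not counted. The step between the cell groups did not pass a test after TMM scaling, given below.

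The NPR1 row, at ILF2 and SNAPIN, had 1212 and 1590 counts in construct cells, 2905 and 4543 in control cells, 1322 and 733 in construct microvesicles and 1043 and 105 in control microvesicles. Its level was 27661 ± 789 CPM in construct cells and 27236 ± 861 in control cells, which overlapped. Construct microvesicles had 38206 CPM in replicate II, above every cell library, and 11449 in replicate III, below every cell library, so that group spread around the cells. Control microvesicles had 4375 and 219 CPM, the lowest of the 8 libraries.

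The ADGRB2 row, at EIF3I and its neighbours, had 1079 and 1153 counts in construct cells, 2084 and 2944 in control cells, 477 and 846 in construct microvesicles and 660 and 75 in control microvesicles. Its level had the same group order as that of the MIER1 row: 22388 ± 3866 CPM in construct cells, 18573 ± 748 in control cells, 13499 ± 404 in construct microvesicles and 1462 ± 1847 in control microvesicles (SD, n = 2). The construct microvesicle libraries were close together (13785 and 13214 CPM), while the control ones were 2768 and 157. MIR4254, the microRNA row inside the same span, had 11 counts in all, in 4 libraries (1 in construct cells, 9 in control cells and 1 in control microvesicles), and did not pass the filter on low counts.

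The FOXJ3 row had 32 and 55 counts in construct cells, 95 and 145 in control cells, 25 and 14 in construct microvesicles and 113 and 42 in control microvesicles. Its level was 841 ± 136 CPM in construct cells, 880 ± 12.7 in control cells, 471 ± 356 in construct microvesicles and 281 ± 273 in control microvesicles. The 2 microvesicle groups overlapped (723 and 219 CPM against 474 and 87.7), as did the 2 cell groups. FOXJ3 thus lacked the gap between construct and control microvesicles seen in the CPM of MIER1, NPR1 and ADGRB2. How many of all rows had such a gap was not counted, so it does not set the members apart.

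**Figure D1:**
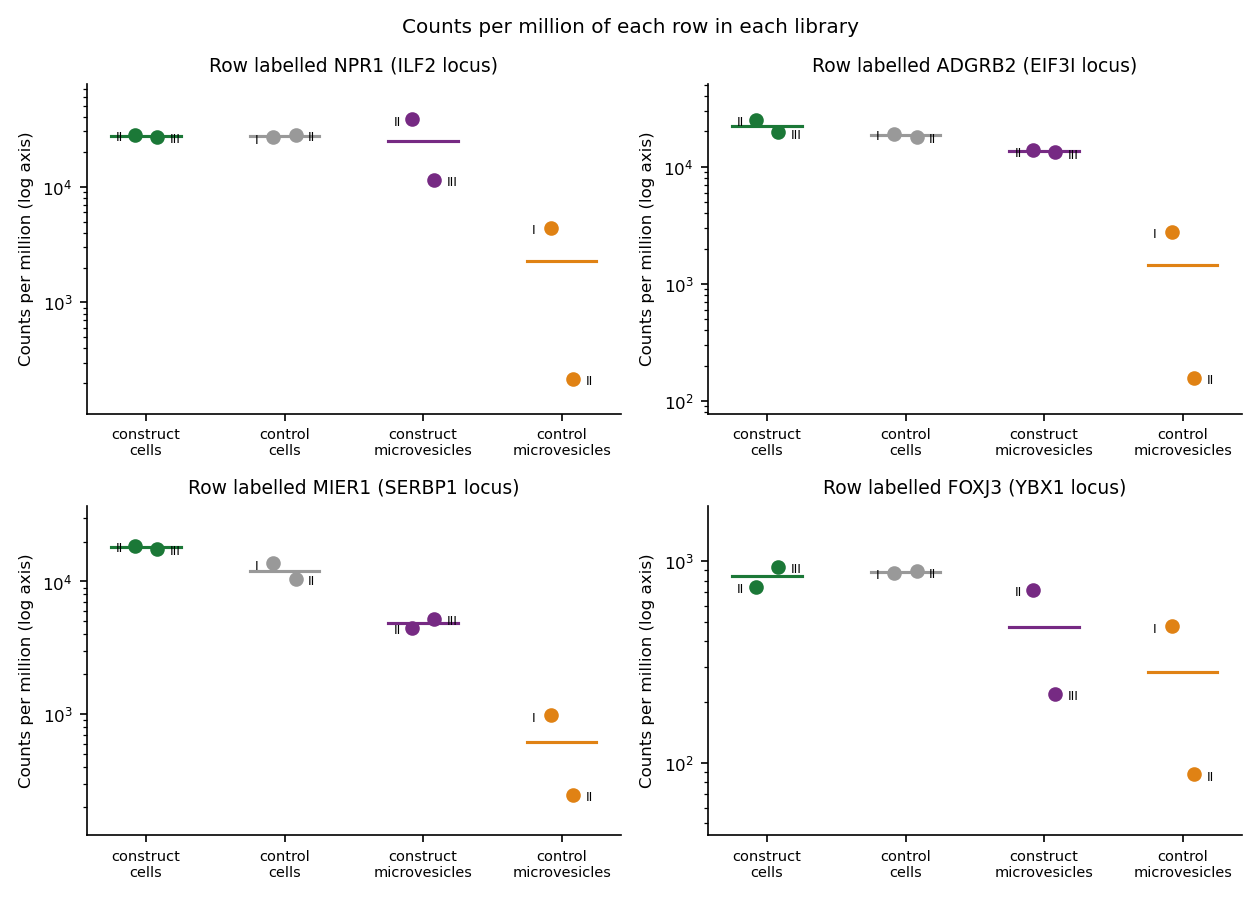
CPM (log axis) of the 4 tested rows in each library, with replicate numerals beside the points and the group mean as a bar (n = 2). Control microvesicles lie lowest for NPR1, ADGRB2 and MIER1, with replicate II at 219, 157 and 246 CPM, while the FOXJ3 microvesicle groups overlap.

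Together, NPR1, ADGRB2 and MIER1 took 5.63% to 7.19% of all counts in the 4 cell libraries. Their share was 5.64% and 2.99% in construct microvesicles and 0.812% and 0.0622% in control microvesicles. With LINC01128 and TP53BP2 left out of the totals, construct and control microvesicles had 29612 ± 19316 and 4104 ± 4821 CPM of NPR1, 17013 ± 1980 and 2625 ± 3010 of ADGRB2, and 6177 ± 1607 and 1234 ± 639 of MIER1. The groups did not overlap for these 3 rows on that scale either, and the share of all rows with such a gap was not counted. FOXJ3 had 561 ± 363 and 546 ± 379.

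Whether the construct changed what microvesicles carried was asked by comparing construct with control microvesicles, with edgeR's quasi-likelihood test over 1113 rows and Benjamini-Hochberg adjustment at 0.05. Construct over control, the SERBP1-locus row MIER1 had 2.40 ± 0.75 (log2 fold change and its SE throughout; adjusted p = 0.0870), NPR1 3.16 ± 1.14 (adjusted p = 0.129), ADGRB2 2.85 ± 0.99 (adjusted p = 0.120) and FOXJ3 0.28 ± 0.90 (adjusted p = 0.887). None of the 4 tested rows passed, against 6.2% of all 1113 rows. At an unadjusted p under 0.05, 3 of the 4 passed, against 23.7% of all rows. The members' median log2 fold change was 2.62 and that of all rows -0.24. Both libraries of construct microvesicles were above both of control microvesicles for NPR1, ADGRB2 and MIER1. The share of all rows with such a gap was not counted, so the gap is no result about the members. By DESeq2 these 3 rows did pass, with adjusted p-values of 0.0268, 0.0272 and 0.0119 in that order, where DESeq2 called 142 of 1418 rows (10%). With LINC01128 and TP53BP2 left out, edgeR gave NPR1 3.39 (adjusted p = 0.113), ADGRB2 3.06 (0.107), MIER1 2.58 (0.0836) and FOXJ3 0.49 (0.806). None passed in that fit. Library totals, by which CPM is divided, were higher in control microvesicles (238416 and 479140) than in construct microvesicles (34602 and 64025). As a ratio of mean CPM the difference was 10.8-fold for NPR1, 9.23-fold for ADGRB2 and 7.90-fold for MIER1. Without control microvesicles II these became 5.68-fold, 4.88-fold and 4.94-fold, and without control microvesicles I they became 113-fold, 86.2-fold and 19.7-fold. For NPR1 the ratio was also 4.98-fold without construct microvesicles II and 16.6-fold without construct microvesicles III. Since both construct libraries were above both control libraries, leaving out 1 of these 4 libraries could not reverse the ratio. Only its size could change, and it did.

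In the cells themselves, construct and control were not distinguished. The log2 fold changes were -0.28 ± 1.05 for NPR1, -0.04 ± 0.93 for ADGRB2, 0.29 ± 0.71 for MIER1 and -0.35 ± 0.89 for FOXJ3, each with an edgeR adjusted p of 1. No row of 1113 was called (0%), and 10 had an unadjusted p under 0.05, none of them a member. For MIER1 the 95% interval ran from -1.28 to 1.87, and a difference inside that range was not excluded. DESeq2 called none of the 4 rows either, and 0 of 4024 in all (0%), with 2 rows at an unadjusted p under 0.05.

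Microvesicles were then compared with the cells that shed them. In control cultures the rows at SERBP1, EIF3I and ILF2 were lower in microvesicles: the log2 fold change was -4.04 ± 0.80 for MIER1 (edgeR adjusted p = 0.00734), -3.63 ± 1.03 for ADGRB2 (0.0239) and -3.55 ± 1.15 for NPR1 (0.0383). FOXJ3 had -1.46 ± 0.90 (0.204). Thus 3 of 4 tested rows were lower, against 20.8% of all rows called lower and 36.6% called in either direction, with a median of -3.59 for the members and 0.39 for all rows. For 26 tested rows with exon bases of other translation and RNA-binding genes, described below, the median was -2.47. A fall was thus not particular to the members. Culture by culture, the ratio of microvesicle to cell CPM in control I and II was 0.0719 and 0.0236 for MIER1, 0.145 and 0.00867 for ADGRB2, and 0.164 and 0.00787 for NPR1. Every ratio was below 1, and control II was the lower in each row. The direction held in each alternative run for these 3 rows, but the call of MIER1 was lost without construct cells II, control cells I or control cells II (adjusted p = 0.0516 to 0.0703), those of NPR1 and ADGRB2 without any 1 cell library, and that of NPR1 also without control microvesicles II (0.0709).

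In construct cultures none of the 4 rows differed between microvesicles and cells by the same test, against 5.21% of all rows called and 4.22% called lower. MIER1 had a log2 fold change of -1.93 ± 0.73 (edgeR adjusted p = 0.136), ADGRB2 -0.74 ± 0.93 (0.594), FOXJ3 -0.83 ± 0.91 (0.542) and NPR1 -0.10 ± 1.05 (0.951). The 95% interval of NPR1 was -2.43 to 2.22, so a 4-fold change either way was not excluded. The culture ratios in construct II and III were 0.240 and 0.298 for MIER1 and 0.549 and 0.672 for ADGRB2, again below 1. For NPR1 they were 1.35 and 0.422, on both sides of 1. For FOXJ3 they were 0.970 and 0.233, against 0.544 and 0.0986 in control cultures. Without control microvesicles I, MIER1 passed in construct cultures, with -2.24 (adjusted p = 0.0454).

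**Figure D2:**
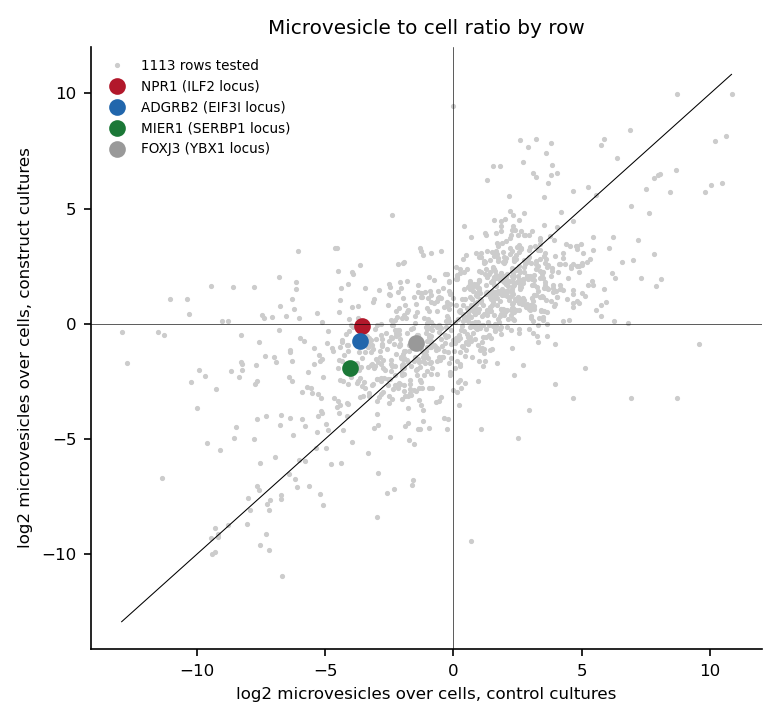
Fitted log2 ratio of microvesicles over cells in control cultures (horizontal) and construct cultures (vertical) for 1113 rows, with the 4 members in colour and the line of equal ratios. NPR1, ADGRB2 and MIER1 lie between -4.04 and -3.55 in control cultures and between -1.93 and -0.10 in construct cultures.

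A call in control cultures and none in construct cultures does not show that the cultures differ, so the difference itself was tested as the interaction of compartment and construct. It was 3.44 ± 1.52 for NPR1 (edgeR adjusted p = 0.363), 2.89 ± 1.34 for ADGRB2 (0.389), 2.10 ± 1.01 for MIER1 (0.402) and 0.63 ± 1.26 for FOXJ3 (0.902). None passed, against 1.8% of all rows, and 1 of 4 had an unadjusted p under 0.05, against 13.2% of all rows. The ratios of both construct cultures were above those of both control cultures for NPR1, ADGRB2 and MIER1, and not for FOXJ3. How many of all rows had this order was not counted. Without control microvesicles I the interaction of ADGRB2 passed, with 5.01 (adjusted p = 0.0465), and that of NPR1 did not (5.77, adjusted p = 0.0724). Without construct microvesicles II the interaction of NPR1 was 1.94 (adjusted p = 0.700). In bulk libraries of this kind, fewer vesicles and less RNA in each vesicle cannot be told apart, and each value is a share of its library.

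**Figure D3:**
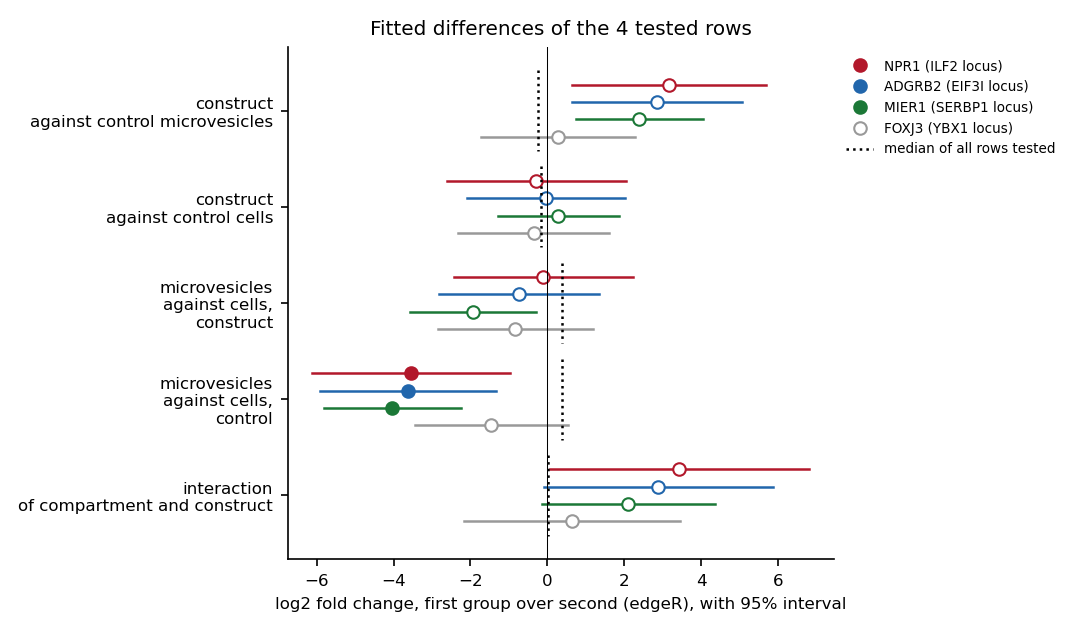
Fitted log2 fold changes of the 4 tested rows in the 5 comparisons with 95% intervals; filled points had an edgeR adjusted p under 0.05 and dotted lines mark the median of all rows tested. Only NPR1, ADGRB2 and MIER1 in control microvesicles against control cells are filled, at -3.55, -3.63 and -4.04.

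Other genes of translation and RNA binding on chromosome 1 were read by the members' rule, any interval in the gene's span. Of 29 listed genes, 25 had such a row outside the members, giving 58 rows of which 38 were tested. In construct against control microvesicles, 3 of the 38 were higher and 0 lower (4.76% and 1.44% of all rows), with a median log2 fold change of 0.24 against -0.24 for all rows. The 3 were 0 of 10 rows at translation factors, 1 of 9 at aminoacyl-tRNA synthetases and 2 of 19 at RNA-binding proteins. In control microvesicles against control cells, 13 of 38 were lower and 0 higher (20.8% and 15.7% of all rows): 1 of 10, 5 of 9 and 7 of 19 in the same order, with medians of 0.58, -2.84 and -1.96. In construct cultures 2 of 38 were lower (4.22% of all rows), both at RNA-binding proteins, and in cells alone no row passed. The interaction passed in 2 of 38, both positive (1.71% of all rows were positive and 0.0898% negative). Of the tested rows, 26 had exon bases of a listed gene, from 16 genes. Their median between microvesicle groups was 1.01, with the same count of 3 higher. In control microvesicles against control cells 11 of the 26 were lower, with a median of -2.47.

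The 3 listed rows that were higher in construct microvesicles touch YARS1, the tyrosyl-tRNA synthetase, and CHTOP. The row TSSK3, with 23 bases of YARS1, had 1950 ± 62.6 CPM in construct and 9.43 ± 10.4 in control microvesicles (n = 2; log2 fold change 7.10, edgeR adjusted p = 0.00544). The row labelled ILF2 holds 78 of the 2079 mRNA bases of CHTOP and none of ILF2, and where in the row its counts fall is not known. It had 2890 and 1437 CPM in construct microvesicles and 155 and 25 in control ones (4.13, adjusted p = 0.0324). The row SNAPIN, also on CHTOP, had 1127 and 594 CPM against 4.19 and 10.4 (5.68, adjusted p = 0.0188). Control microvesicles held only 4 and 1 counts of TSSK3 and 1 and 5 of SNAPIN, so the size of both fold changes is uncertain. Where in these rows the counts fall is not known either. In cells the 3 rows did not pass. The row MACF1, with 254 of the 3142 mRNA bases of PABPC4, a cytoplasmic poly(A)-binding protein, had 10534 CPM as a mean in construct and 1147 in control microvesicles (2.66, adjusted p = 0.129) and did not pass. The row GPR89C, with 1077 of the 3168 mRNA bases of RBM8A, went the other way and did not pass either. Its mean was 187 CPM in construct and 1038 in control microvesicles (-2.998, adjusted p = 0.0609). Against cells, GPR89C was lower in construct microvesicles (-4.543, adjusted p = 0.0252) and did not pass in control cultures (adjusted p = 0.181). The row DHX9, with 118 exon bases of that RNA helicase gene, was lower in microvesicles in both cultures, by -5.41 in construct (adjusted p = 0.0295) and -4.97 in control (adjusted p = 0.00826). It had 45 and 72 counts in construct cells and 0 and 3 in construct microvesicles.

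The members' profiles over the 8 libraries are described by Pearson's r of log2 CPM, with no test, since the libraries fall into compartments and share their depth across rows. NPR1 and ADGRB2 were most alike (0.974), followed by ADGRB2 and MIER1 (0.929) and NPR1 and MIER1 (0.877), while FOXJ3 had 0.676 to 0.765 with the others. Rows with clone-type, LINC, small RNA, antisense or pseudogene names were left out of the search for like rows. Among the remaining tested rows with a gene symbol, those most like NPR1 were PGD (0.976), PI4KB (0.965) and PRCC (0.958). Those most like ADGRB2 were PGD (0.983), the row labelled ILF2 (0.964) and HAPLN2 (0.959), and those most like MIER1 were OMA1 (0.985), CLCA2 (0.973) and ARID4B (0.973). The rows most like FOXJ3 were RUNX3 (0.979), AKR7L (0.977) and CHRNB2 (0.972). These are hg19 row names, and the genes whose reads they hold were not looked up.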

How the data were processed

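The authors deposited whole-number counts per gene row, made with featureCounts 1.6.4 on GENCODE 19 with strand setting 2 per the file headers, from STAR alignments to hg19 per the submitters' processing notes; no version of STAR is stated. Each library had 2 columns, R1 and R2, whose meaning is not stated; they were summed, and 16 of 16 columns were used. R1 held 48.3% to 54.5% of the counts of the 4 tested rows. GRCh38 exons and sequences came from GENCODE 44 in its lifted edition, which records each exon's original position; no coordinate was converted. Symbols matched 55665 of 63568 rows. All 1190053 counts lay on chromosome 1.

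edgeR 4.0.16 (R 4.3.3) fitted 1 quasi-likelihood model of 4 groups over 8 libraries with TMM scaling and filterByExpr, leaving 4 residual degrees of freedom, with Benjamini-Hochberg adjustment over 1113 rows. Standard errors are the fold change over the square root of F, and 95% intervals use the moderated degrees of freedom. DESeq2 1.42.0 was an alternative. On simulated counts for these 1113 rows, 53% of 16-fold and 10% of 4-fold changes between microvesicle groups were called. The shares were 41% and 2% in construct cultures, and 56% and 3% in control cultures. The simulation gave all rows the same spread around their mean over the 4 groups, and changed rows were only raised in microvesicles. It therefore does not say how often rows like the members would be called.

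The members and the gene lists were chosen with earlier results of these data known. Named rows are the members, the rows bearing their symbols and the 3 rows most like each member. Some listed rows that were called or discussed for their gene are also named, and PABPC4 and RBM8A were picked after their values were seen. Per the series text microvesicles and lysate come from the same culture, which pairs them; as a check, deviations from the group mean correlated within a culture at -0.0318 (construct) and 0.0215 (control). Alternatives changed scaling, filter, read column, tool, samples and block. Some exon sequence is not reported here.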

Additional observations from a re-analysis of the deposited data

How the results depend on the processing

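Over 18 alternatives, 296 of 348 recomputed member values kept their direction and side of the threshold, 18 lost a call, 11 gained one and 23 changed sign; the causes were not tested. With the pairing of each culture's libraries as a replicate block, the counts of rows called were 76 in construct cultures, 374 in control cultures and 21 for the interaction, and no member changed its call. Between microvesicle groups, 225 rows were called with no filter on low counts, 142 by DESeq2, 0 with only the 4 libraries compared, and 0 to 115 with 1 library left out; without a filter NPR1 (3.29, adjusted p = 0.0140) and ADGRB2 (3.02) passed, and by DESeq2 NPR1 (3.55), ADGRB2 (3.18) and MIER1 (2.68) did. With 1 library left out the values ran from 1.75 to 5.58 for NPR1, 2.14 to 5.08 for ADGRB2, 2.13 to 2.93 for MIER1 and -1.11 to 1.35 for FOXJ3, which was also -0.046 with R1 alone and -0.15 with R2 alone. NPR1 and ADGRB2 passed there without control microvesicles I and MIER1 without construct microvesicles III. In cells, ADGRB2 changed sign to 0.10 with RLE factors, 0.17 with upper-quartile factors, 0.27 with library size, 0.12 without the 2 most abundant microvesicle rows, 0.20 with only the 4 libraries compared and 0.023 by DESeq2, and NPR1 to 0.027 with library size; leaving out 1 library gave -0.26 to 0.24 for ADGRB2. In construct cultures, rows called numbered 16 with library size, 93 with no filter, 0 with only the 4 libraries compared, 105 by DESeq2 and 0 to 123 with 1 library left out. NPR1 changed sign there to 0.059 with RLE factors, 0.63 with upper-quartile factors, 0.18 with R1 alone, 0.15 with R2 alone and 0.35 with only the 4 libraries compared, and ran from -1.91 to 0.25 with 1 library left out (MIER1 -2.47 to -2.02). In control cultures, NPR1 lost its call with upper-quartile factors (-2.83), library size (-3.38), R1 alone (-2.84) and only the 4 libraries compared (-3.88), and ADGRB2 with library size (-3.48) and only the 4 libraries compared (-3.97). With 1 library left out, 32 to 410 rows were called and the values ran from -6.13 to -3.11 for NPR1, -6.06 to -3.21 for ADGRB2, -4.78 to -4.07 for MIER1 and -2.50 to -1.36 for FOXJ3, which passed without construct microvesicles III. The interaction gave 10 rows with upper-quartile factors, 61 with no filter, 74 by DESeq2 and 0 to 62 with 1 library left out, with 1.94 to 5.77 for NPR1, 2.40 to 5.01 for ADGRB2, 1.88 to 2.54 for MIER1 and -0.84 to 1.66 for FOXJ3. Depth was lowest for MIR4254, with 0 to 6 counts per library and no test, and then FOXJ3, with 14 to 145.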

Other observations

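The rows that bear the symbols EIF3I, SERBP1 and YBX1, which meet no GRCh38 MANE Select exon, had more raw counts in microvesicles than in cells. Depth differed as well, with total counts of 42950 to 163157 in cell libraries and 34602 to 479140 in microvesicle libraries. EIF3I had 10 counts in the 4 cell libraries and 68 in the 4 microvesicle libraries, SERBP1 9 and 33, and YBX1 14 and 29. As CPM, the row EIF3I had 17 to 36.7 in cells, 28.9 and 172 in construct microvesicles and 92.3 and 71.0 in control microvesicles. The row SERBP1 had 0 to 42.9 in cells, 86.7 and 109 in construct microvesicles and 75.5 and 10.4 in control microvesicles. On the same scale the row YBX1 had 30.6 to 69.8 in cells, 0 and 62.5 in construct microvesicles and 79.7 and 12.5 in control microvesicles, so that its groups overlapped. These counts are too few for a comparison of groups, and they describe the intervals rather than the genes after which they are named.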
